A study of Mus musculus with 60 samples.

Results

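The BCL2 family genes that hold a blood cell on the side of survival or tip it towards death were followed in whole blood of mice given BIO 300, a synthetic genistein, before total body irradiation (TBI). The members were the survival genes Bcl2, Bcl2l1, Bcl2l2, Mcl1, Bcl2a1b and Bcl2a1d, the BH3-only genes Bcl2l11, Bid and Bad, and the effector gene Bak1. They were taken by name from the family, leaving out the direct p53 targets Bax, Bbc3 and Pmaip1. The rule used no measured value, but earlier results of these data were known when the choice was made. This gave 10 of the 49315 genes in the count tables, and all 10 passed the filter on low counts in every comparison.

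All mice were male CD2F1 mice aged 5 to 6 weeks that received 12 doses of vehicle or BIO 300 over 6 days. The BIO 300 doses were 50, 100 and 200 mg/kg, which the sample labels call low, medium and high. Blood was taken on Day 0, which was 24 h after the last dose, or on Day 1, which was 48 h after it, and different mice were used on each day. On Day 0, further mice that had received vehicle or 200 mg/kg were exposed to 9.2 Gy TBI and were bled 24 h later, on Day 1. Each of the 10 groups (vehicle and the 3 doses on both days, and vehicle and 200 mg/kg with TBI) held 6 mice, and each mouse gave a single terminal sample of blood RNA.

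Proteins of the BCL2 family decide whether the outer mitochondrial membrane stays intact. The survival members BCL2, BCL-XL (from Bcl2l1), BCL-W (from Bcl2l2), MCL1 and A1 (from the Bcl2a1 genes) bind and restrain the pore formers BAK and BAX. The BH3-only members BIM (from Bcl2l11), BID and BAD release that restraint or act on the pore formers directly, after which cytochrome c leaves the mitochondria and caspases are activated. Blood cells rely on different survival members: mature lymphocytes on BCL2, neutrophils on MCL1 and A1, and late erythroid cells and platelets on BCL-XL.

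The 60 libraries held between 15099415 and 45589415 counts (median 24877993.5). Values are counts per 1000000 counts (CPM) after TMM scaling, and a fold change was called when edgeR's quasi-likelihood test gave an adjusted p under 0.05, with differentially expressed genes (DEGs) also required to have an absolute log2 fold change over 1. The scaling mattered in these libraries. In the 100 and 200 mg/kg groups on Day 1, the median log2 fold change of all genes against vehicle was -0.38 and -0.48 with TMM, and -1.76 and -1.96 when libraries were scaled by total counts. On Day 0 it was 0.03 and 0.69 at 50 mg/kg, and for TBI in vehicle mice it was 0.09 and -0.28. Changes on Day 1 after BIO 300 are therefore also given relative to the median gene. In 11 libraries, transcripts of the liver gene Alb exceeded 100 CPM, with 16050 CPM in mouse 51 (vehicle with TBI) and 5625 CPM in mouse 57 (200 mg/kg with TBI). Bulk blood RNA cannot tell fewer cells of a type from less RNA per cell.

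Members differed widely in level. Per kilobase of exon (RPKM), Bcl2l1 had the highest median over the 60 mice at 283, with a range of 33.1 to 774. Mcl1 followed at 77.2, ranging from 40.9 to 215. Bak1, Bcl2 and Bid lay close together, at medians of 8.45, 8.35 and 7.70 RPKM. Bcl2l11 stood at 4.01 RPKM and Bad at 1.88 RPKM, whereas Bcl2a1d, Bcl2a1b and Bcl2l2 had medians of 1.24, 1.23 and 0.576 RPKM. Bcl2a1b was at 0 counts in 1 mouse. Counts of at least 10 were found in 52 mice for Bcl2a1d, in 56 for Bcl2a1b and in all 60 for the other members.

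The Bcl2a1 genes are near-identical copies on chromosome 9, so reads from one copy can be assigned to another or lost. The first 120 coding bases of 3 copies (GRCm38) are printed because they hold 7 of the 12 coding positions at which these copies differ, given in capitals. The stretches lie at chr9:88957051-88957170 (+), chr9:89199360-89199479 (+) and chr9:88731600-88731719 (-).
Bcl2a1a: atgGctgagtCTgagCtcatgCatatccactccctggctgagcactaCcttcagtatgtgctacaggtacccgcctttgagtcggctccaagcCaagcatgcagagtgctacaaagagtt
Bcl2a1b: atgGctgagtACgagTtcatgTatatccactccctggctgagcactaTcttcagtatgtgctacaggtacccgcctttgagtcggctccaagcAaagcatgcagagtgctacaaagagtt
Bcl2a1d: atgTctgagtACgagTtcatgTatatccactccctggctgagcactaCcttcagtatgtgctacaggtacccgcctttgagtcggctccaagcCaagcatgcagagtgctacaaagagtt
Over the whole coding sequence of 516 bases, Bcl2a1b and Bcl2a1d differed at 6 bases (98.8% identity), Bcl2a1a and Bcl2a1d at 7 (98.6%) and Bcl2a1a and Bcl2a1b at 11 (97.9%). Of the 50-base stretches in the Bcl2a1d transcript, 79.5% occurred in another copy, against 57.6% for Bcl2a1b. Values of these genes are therefore uncertain as to the copy. The further copy Bcl2a1c had 5 counts in all 60 libraries.

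The promoters of Bcl2, Bcl2l1 and Bid are shown because these members had the largest changes among those called in the comparisons of BIO 300 with vehicle. Each window runs from 250 bases before to 50 bases after a RefSeq start site (GRCm38.p6), and capitals mark motif matches on either strand. GGGCGG is the GC box of SP and KLF factors. The letters AGATAA are a site of erythroid zinc finger factors, and CCGGAA is a site of ETS factors. The windows are chr1:106714241-106714540 (-) for Bcl2, chr2:152828440-152828739 (-) for 1 of the 3 starts of Bcl2l1, and chr6:120916775-120917074 (-) for Bid. That Bcl2l1 start was picked because its window holds AGATAA. The windows of the other Bcl2l1 starts hold no AGATAA, and 1 of them holds CCGGAA.
Bcl2: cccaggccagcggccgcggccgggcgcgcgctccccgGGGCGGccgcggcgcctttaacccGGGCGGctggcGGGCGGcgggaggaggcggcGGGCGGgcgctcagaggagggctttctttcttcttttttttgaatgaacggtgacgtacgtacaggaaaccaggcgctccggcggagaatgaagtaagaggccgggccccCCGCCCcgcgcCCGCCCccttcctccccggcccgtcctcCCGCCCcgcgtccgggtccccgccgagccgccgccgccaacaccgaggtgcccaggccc
Bcl2l1: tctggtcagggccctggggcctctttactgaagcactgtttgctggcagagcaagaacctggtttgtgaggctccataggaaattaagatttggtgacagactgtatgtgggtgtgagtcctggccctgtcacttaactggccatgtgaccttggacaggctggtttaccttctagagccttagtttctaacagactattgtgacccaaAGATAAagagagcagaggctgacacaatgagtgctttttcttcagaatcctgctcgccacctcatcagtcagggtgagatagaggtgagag
Bid: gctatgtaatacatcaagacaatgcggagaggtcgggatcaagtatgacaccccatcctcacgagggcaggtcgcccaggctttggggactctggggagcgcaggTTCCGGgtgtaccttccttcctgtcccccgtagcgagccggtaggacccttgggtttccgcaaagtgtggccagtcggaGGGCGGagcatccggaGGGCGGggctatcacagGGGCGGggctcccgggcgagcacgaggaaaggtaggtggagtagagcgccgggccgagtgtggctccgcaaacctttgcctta
The Bcl2 window held 7 GC boxes and the Bid window 3, whereas the Bcl2l1 window shown held none and had a single AGATAA. Over 32851 promoter windows, GGGCGG occurred in 35.7%, AGATAA in 11.2% and CCGGAA in 14.9%. The members have 14 windows, of which 9 held GGGCGG, 5 CCGGAA, 1 AGATAA and 0 TGACTCA (an AP-1 motif found in 5.20% of all windows). These matches describe letters and not binding sites.

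**Figure D1:**
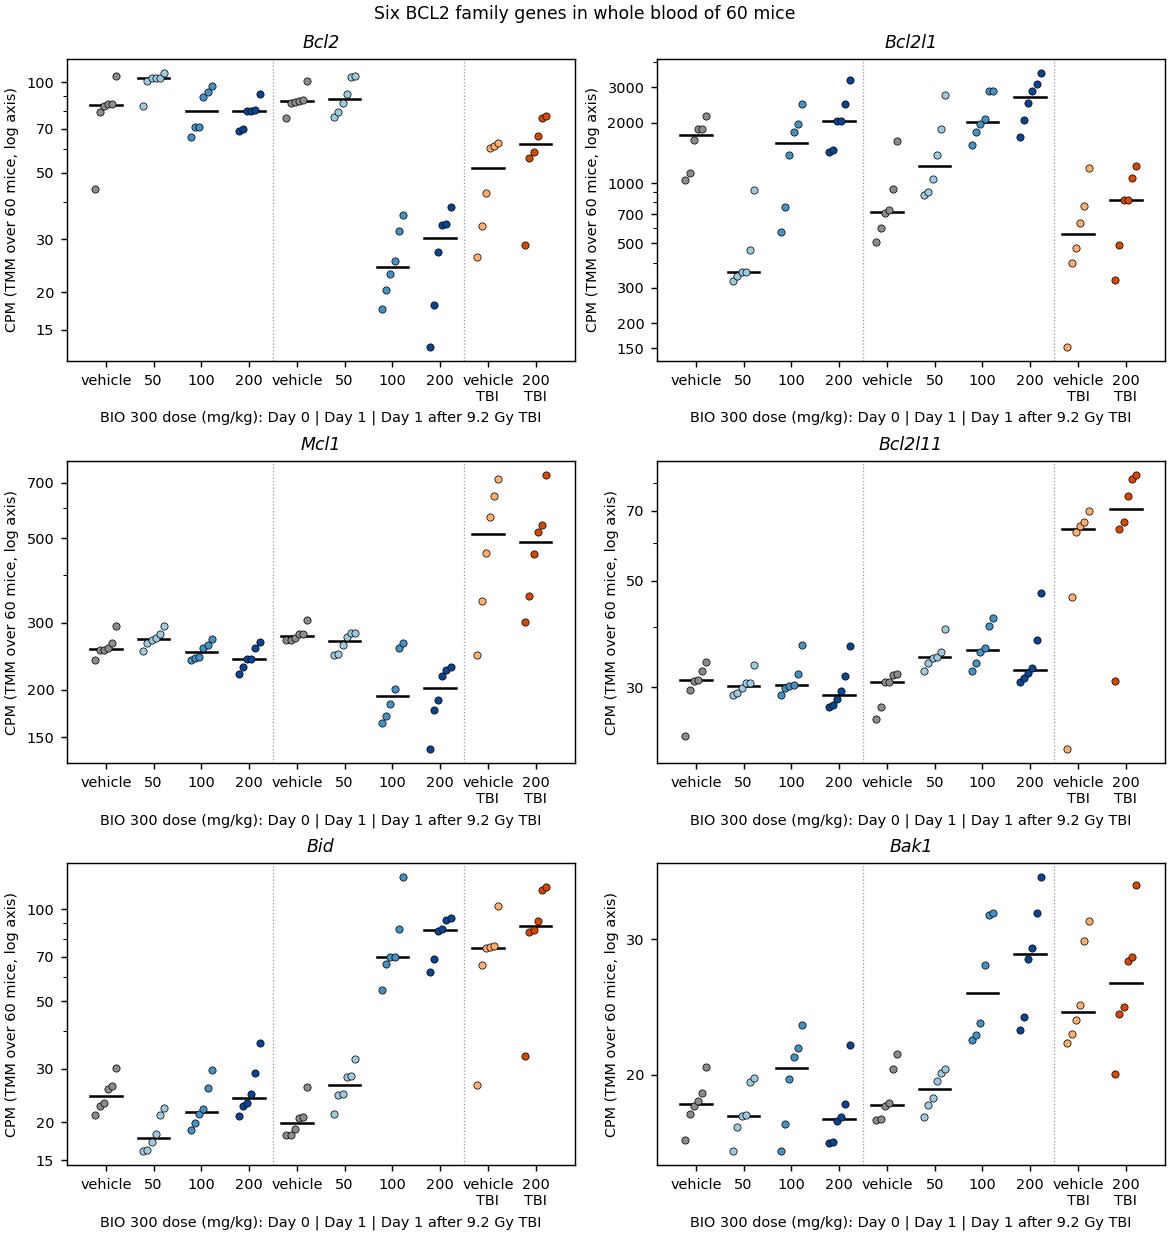
CPM on a log axis for each mouse in the 10 groups for Bcl2, Bcl2l1, Mcl1, Bcl2l11, Bid and Bak1, with a bar at the group median (n = 6 mice per group). Bcl2 was lowest and Bid was about as high as after TBI in the 100 and 200 mg/kg groups on Day 1, with Bid medians of 69.7 and 85.5 CPM against 19.9 CPM in vehicle mice, while Mcl1 was highest in the irradiated groups.

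On Day 1 after 100 or 200 mg/kg BIO 300, Bcl2 fell to about 0.310 and 0.332 of its vehicle level, Bid rose 4.01-fold and 4.17-fold, and Bcl2l1 rose 2.68-fold and 3.25-fold. The same 6 members (Bcl2, Bcl2l1, Mcl1, Bcl2l11, Bid and Bak1) were called at both doses, 4 of them higher and 2 lower. That is 6 of 10 members at 100 mg/kg, where 65.6% of all 23699 genes tested were called (25% higher and 40.6% lower), and 6 of 10 at 200 mg/kg, where 63.5% of 23513 were called (23.6% higher and 39.9% lower). The members were thus called about as often as any gene. Both comparisons used the same 6 vehicle mice. With total-count scaling 76.3% of genes were called at 100 mg/kg and 77.8% at 200 mg/kg. The split moved to 7.72% higher and 68.5% lower at 100 mg/kg and to 6.63% and 71.2% at 200 mg/kg, and the members to 1 higher and 8 lower, and 1 higher and 7 lower. The median log2 fold change of the members was 0.18 against -0.38 for all genes at 100 mg/kg, and 0.26 against -0.48 at 200 mg/kg. With total counts these were -1.23 against -1.76, and -1.26 against -1.96.

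On Day 0, 2 members were called at 50 mg/kg, both lower (14.1% of 24485 genes were called, 4.21% higher and 9.87% lower). Bcl2l1 was the 1 member that was also a DEG there, against 4.5% of all genes. With total counts 7 members were higher and 1 lower in that comparison, against 53% of all genes called, 49.4% higher and 3.61% lower. At 100 and 200 mg/kg on Day 0 edgeR called 0 members and 0% of all genes, 0 members reached an unadjusted p under 0.05, and DESeq2 called 0 members. Of all genes, 726 of 24000 and 2145 of 23795 reached that p (edgeR), and DESeq2 called 0.0208% and 0.0168%. At 50 mg/kg on Day 1, edgeR called 0 members and 0.00829% of all genes. An unadjusted p under 0.05 was reached by 3 members and by 4458 of all 24118 genes (edgeR). DESeq2 called 2 members, Bcl2l11 and Bid, and 5.17% of all genes. Between vehicle mice of Day 1 and Day 0, edgeR called 0 members and 0% of all genes. There 2 members and 3007 of all 24375 genes reached an unadjusted p under 0.05 (edgeR). DESeq2 called 1 of these members, Bcl2l1, and 3.19% of all genes.

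TBI in vehicle mice moved 6 of 10 members on Day 1, with 4 higher (Mcl1, Bcl2l11, Bid and Bak1) and 2 lower (Bcl2 and Bcl2a1d). Of all 25146 genes, 46.8% were called (24.4% higher and 22.4% lower). With total counts 1 member was higher and 3 lower, against 42.8% of genes called (15.3% higher and 27.5% lower). Against vehicle mice of Day 0, 6 members were called, 5 higher and 1 lower (36.4% of 24751 genes were called), or 3 higher and 2 lower with total counts (28.6%). In mice that had received 200 mg/kg, 5 of 10 members were called after TBI, 4 higher and 1 lower, against 27.2% of 23610 genes (17.6% higher and 9.58% lower). With total counts 7 were higher and 1 lower there, against 48.8% of genes called (46.5% higher and 2.28% lower). Between the 2 irradiated groups, edgeR called 0 members and 0% of all genes. In that comparison 0 members and 688 of 24916 genes reached an unadjusted p under 0.05 (edgeR). DESeq2 also called 0 members and 0% of all genes there.

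**Figure D2:**
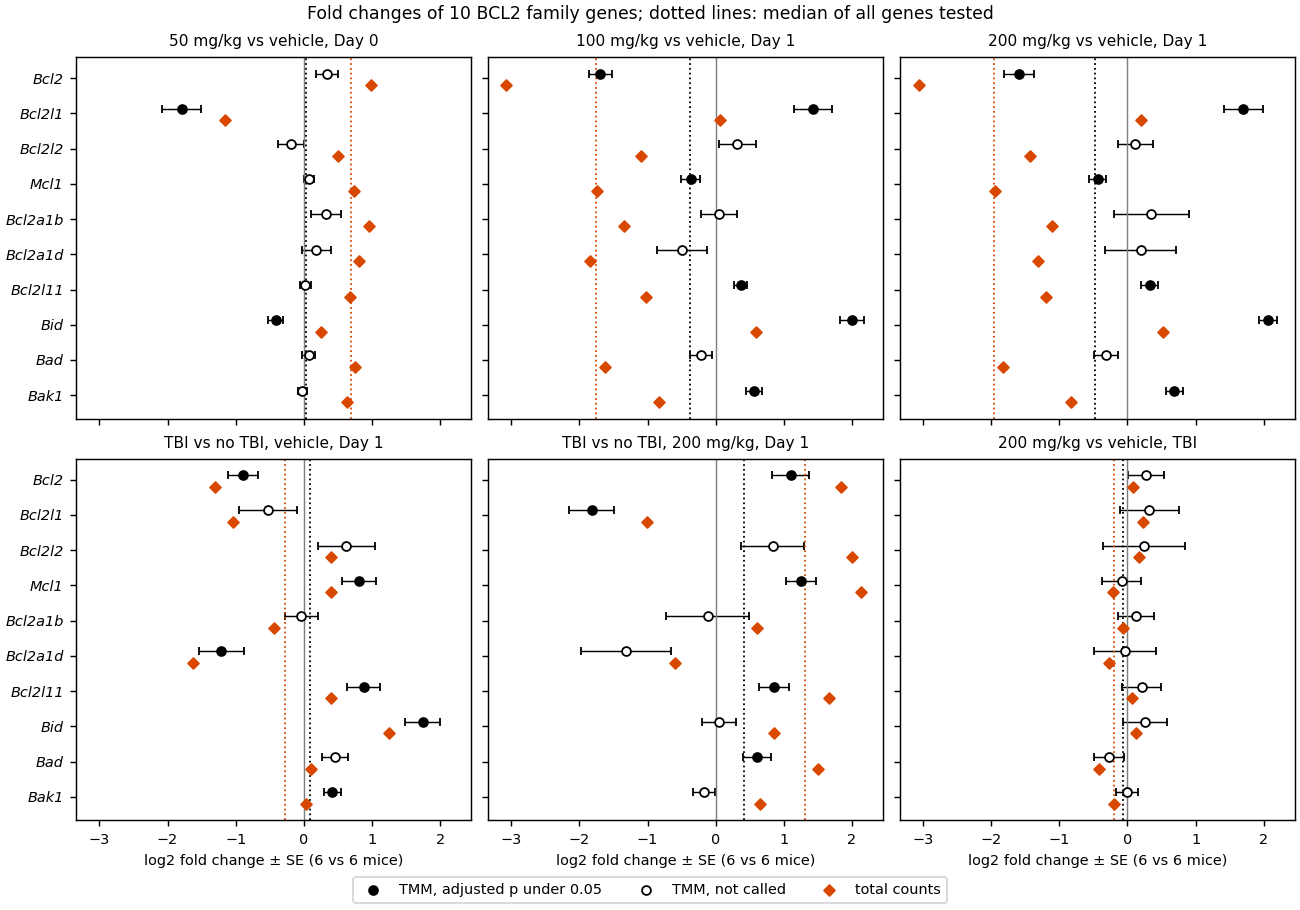
Log2 fold change (test group minus reference group) of the 10 members in 6 comparisons, with bars of 1 standard error from edgeR (n = 6 mice per group). Filled points were called at an adjusted p under 0.05, diamonds are the same fold changes with libraries scaled by total counts, and the dotted lines are the medians of all genes under each scaling. Bid was the most raised member at 100 and 200 mg/kg on Day 1 (2.00 and 2.06) and after TBI in vehicle mice (1.74). Among members called under at least 1 of the scalings, the fold changes of Bcl2l11 and Bak1 on Day 1 after 100 or 200 mg/kg turn with total counts from positive to negative, as do those of Bcl2l2 at both doses, Bcl2a1b at 100 mg/kg and Bcl2a1d at 200 mg/kg, whereas those of Bid and Bak1 at 50 mg/kg on Day 0 and of Bak1 after TBI in 200 mg/kg mice turn from negative to positive.

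Bcl2 (chr1:106538178-106714274, minus strand, GRCm38) encodes the founding survival protein, on which resting lymphocytes depend. In vehicle mice on Day 1 it ranged from 76.0 to 101 CPM with a median of 86.4 CPM. After 100 mg/kg it ranged from 17.6 to 36.3 CPM (median 24.2), and after 200 mg/kg from 13.1 to 38.4 CPM (median 30.3). All 6 mice at each dose were below every vehicle mouse. The mean went from 87.1 ± 7.93 to 25.8 ± 7.12 CPM at 100 mg/kg (SD, n = 6; log2 fold change -1.69, SE 0.17, adjusted p = 1.29e-06, edgeR) and to 27.3 ± 9.89 CPM at 200 mg/kg (-1.59, SE 0.22, adjusted p = 2.09e-05, edgeR). Relative to the median gene, Bcl2 was lower by 1.31 and 1.11 on the log2 scale. The fall kept its direction and its call with total counts, at -3.07 and -3.06. On Day 0, Bcl2 medians in all groups lay between 80.1 and 103 CPM and no difference was called. Mice given 50 mg/kg had 83.6 to 107 CPM on that day against 44.2 to 105 CPM in vehicle mice (log2 fold change 0.34, SE 0.16, adjusted p = 0.173, edgeR).

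TBI also lowered Bcl2 in vehicle mice. Irradiated vehicle mice ranged from 26.2 to 62.8 CPM with a median of 51.6 CPM, all below the 6 vehicle mice of Day 1. The log2 fold change was -0.89 (SE 0.22, adjusted p = 0.00599, edgeR). Against vehicle mice of Day 0, whose lowest mouse was at 44.2 CPM, it was -0.64 and not called (adjusted p = 0.0918, edgeR). In mice that had received 200 mg/kg the direction was opposite. The irradiated mice ranged from 28.7 to 76.9 CPM (median 62.5), and 5 of 6 were above all unirradiated mice given 200 mg/kg (1.10, SE 0.27, adjusted p = 0.00934, edgeR). The difference between these TBI effects was itself called (2.09, SE 0.35, adjusted p = 0.000208, edgeR interaction test). The lowest irradiated value in each arm came from mice 51 and 57, which had the most Alb transcripts of their own groups. Without the 11 libraries with over 100 CPM of Alb, the calls of Bcl2 in the comparisons on Day 1 did not change, and the comparison with vehicle mice of Day 0 was called (-0.64, adjusted p = 0.00787, edgeR).

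The T cell markers fell with Bcl2 at 100 and 200 mg/kg on Day 1 and after TBI in vehicle mice, but did not rise with it after TBI within 200 mg/kg. The 8 T cell genes summed to 460 to 574 CPM in vehicle mice on Day 1, to 97.5 to 210 CPM after 100 mg/kg, to 57.9 to 237 CPM after 200 mg/kg, to 29.8 to 144 CPM after TBI and to 42.0 to 171 CPM after TBI with 200 mg/kg. All 8 were lower in each BIO 300 group and after TBI in vehicle mice, and 1 of 8 was lower after TBI within 200 mg/kg. None was at 0 in all mice. Within the 10 groups, Bcl2 and the T cell list correlated with r from 0.620 to 0.997 (median 0.980, n = 6 mice in each group), and over the 60 mice with group means subtracted r was 0.97. Both lists of values come from the same libraries and share their depth. The part of lymphocyte number in the Bcl2 result was not tested.

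Bcl2l1 (chr2:152780668-152831728, minus strand) encodes BCL-XL, the survival protein of platelets and maturing erythroid cells. In vehicle mice it ranged from 1042 to 2163 CPM on Day 0 (median 1744) and from 509.5 to 1617 CPM on Day 1 (median 719). That difference was not called (log2 fold change -0.93, SE 0.29, adjusted p = 0.245, edgeR). At 50 mg/kg on Day 0 it was 323 to 926 CPM with a median of 361 CPM. Each of these 6 mice was below every vehicle mouse. The mean fell from 1614 ± 446 to 463.5 ± 232 CPM (SD, n = 6; -1.79, SE 0.29, adjusted p = 0.00265, edgeR). On Day 1 the sign at 50 mg/kg was the other way but not called (0.81, SE 0.34, adjusted p = 0.219, edgeR), and the effects on the 2 days differed (2.62, SE 0.47, adjusted p = 0.000482, edgeR interaction test).

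On Day 1, Bcl2l1 reached 1546 to 2896 CPM after 100 mg/kg (median 2029) and 1689 to 3550 CPM after 200 mg/kg (median 2694). At 100 mg/kg 5 of 6 mice and at 200 mg/kg all 6 were above the highest vehicle mouse. The log2 fold changes were 1.42 (SE 0.28, adjusted p = 0.000482, edgeR) and 1.70 (SE 0.28, adjusted p = 0.000119, edgeR). Bcl2l1 stood 1.80 and 2.18 above the median gene on the log2 scale. With total counts it was no longer called, at 0.06 (adjusted p = 0.804, edgeR) and 0.20 (adjusted p = 0.36, edgeR). On Day 0, 100 mg/kg mice ranged from 568 to 2477 CPM and 200 mg/kg mice from 1433 to 3263 CPM, overlapping vehicle mice, and neither was called.

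After TBI, Bcl2l1 was 152 to 1186 CPM in vehicle mice (median 554), which overlapped unirradiated vehicle mice of the same day (-0.53, SE 0.43, adjusted p = 0.32, edgeR). Against vehicle mice of Day 0 it was lower (-1.31, SE 0.43, adjusted p = 0.0311, edgeR). Mice given 200 mg/kg went from 1689 to 3550 CPM without TBI to 328 to 1216 CPM with it, with no overlap (-1.82, SE 0.33, adjusted p = 0.00134, edgeR). The difference between the TBI effects was -1.16 and not called (adjusted p = 0.0894, edgeR interaction test; 0.03 with total counts), but it was called without the 11 libraries rich in Alb (-1.39, adjusted p = 0.0149, edgeR).

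The erythroid list moved with Bcl2l1. Its 8 genes, including the globins, summed to 87757 to 163387 CPM in vehicle mice and 30145 to 107999 CPM at 50 mg/kg on Day 0, with 4 of 8 lower. On Day 1 the sums were 78745 to 117331 CPM in vehicle mice, 316965 to 585569 CPM at 100 mg/kg and 276577 to 624151 CPM at 200 mg/kg, and all 8 were higher at both doses. With total counts, 4 of 8 were higher at each dose and 1 was lower at 100 mg/kg. TBI in vehicle mice spread the list from 18477 to 298607 CPM with 0 of 8 called, and 6 of 8 were lower after TBI within 200 mg/kg. Within groups r with Bcl2l1 ran from 0.364 to 0.995 (median 0.940, n = 6 mice in each group), and was 0.91 over 60 mice with group means subtracted. The part of red cell RNA in the Bcl2l1 result was not tested.

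Mcl1 (chr3:95658788-95663176, plus strand) encodes a short-lived survival protein needed by neutrophils and many other blood cells. It ranged from 270.2 to 304 CPM in vehicle mice on Day 1 (median 277). After 100 mg/kg it was 163 to 265 CPM (median 192), and after 200 mg/kg 140 to 230 CPM (median 202). Neither BIO 300 group overlapped the vehicle mice. The log2 fold changes were -0.37 (SE 0.14, adjusted p = 0.0335, edgeR) and -0.44 (SE 0.13, adjusted p = 0.00881, edgeR). This was also the shift of the median gene, relative to which Mcl1 stood at 0.01 and 0.04. The call at 100 mg/kg was lost without any of mice 26, 27, 37, 39, 41 and 42 in turn (adjusted p = 0.0513 to 0.0803, edgeR), and without the Alb-rich libraries (-0.25, adjusted p = 0.224, edgeR). On Day 0, Mcl1 medians were 241 to 272 CPM with no call.

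TBI raised Mcl1. Irradiated vehicle mice ranged from 247 to 718 CPM (median 514), and 5 of 6 lay above all vehicle mice of Day 1 while mouse 51 lay below them. The log2 fold change was 0.80 (SE 0.25, adjusted p = 0.0176, edgeR), or 0.39 and not called with total counts (adjusted p = 0.214, edgeR). Against vehicle mice of Day 0 it was 1.04 (SE 0.27, adjusted p = 0.00929, edgeR). In mice given 200 mg/kg, irradiated mice had 302 to 734 CPM (median 489) and all lay above the unirradiated ones (1.25, SE 0.22, adjusted p = 0.00111, edgeR). The 2 TBI effects were not shown to differ (0.57, adjusted p = 0.146, edgeR interaction test).

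The neutrophil list rose with TBI as Mcl1 did. Its 8 genes summed to 426 to 691 CPM in vehicle mice on Day 1 and 1184 to 6655 CPM after TBI, with 8 of 8 higher, and 7 of 8 were higher after TBI within 200 mg/kg. At 100 and 200 mg/kg without TBI, 3 of 8 were higher at each dose and 1 was lower at 200 mg/kg, but with total counts 5 and 8 were lower. Of all genes 25% and 23.6% were higher at these doses, and with total counts 68.5% and 71.2% were lower. Within groups r between Mcl1 and the list ran from -0.278 to 0.973 (median 0.566, n = 6 mice in each group), and was 0.81 over 60 mice with group means subtracted. The part of neutrophil number in the Mcl1 result was not tested.

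The remaining survival members were scarce. Bcl2l2, which encodes BCL-W, had group medians of 2.39 to 3.17 CPM and was called in no comparison. Its highest values were 14.8 CPM in mouse 57, 10.8 CPM in mouse 51, 5.49 CPM in mouse 49 (vehicle with TBI) and 4.93 CPM in mouse 17 (vehicle, Day 0). All 4 are among the 11 libraries with over 100 CPM of Alb. Bcl2a1b and Bcl2a1d encode copies of A1, a survival protein of activated leukocytes. Bcl2a1b medians were 0.778 to 1.17 CPM with no call under TMM, but it was called lower with total counts at 100 mg/kg on Day 1. Bcl2a1d went from 0.882 to 2.03 CPM in vehicle mice on Day 1 (median 1.43) to 0.334 to 1.09 CPM after TBI (median 0.540). Of the 6 irradiated mice, 4 were below all vehicle mice (log2 fold change -1.21, SE 0.33, adjusted p = 0.0104, edgeR). The nearly identical Bcl2a1a, at 0.409 to 1.00 and 0.197 to 0.964 CPM, was not called (-0.10, SE 0.37, adjusted p = 0.837, edgeR).

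**Figure D3:**
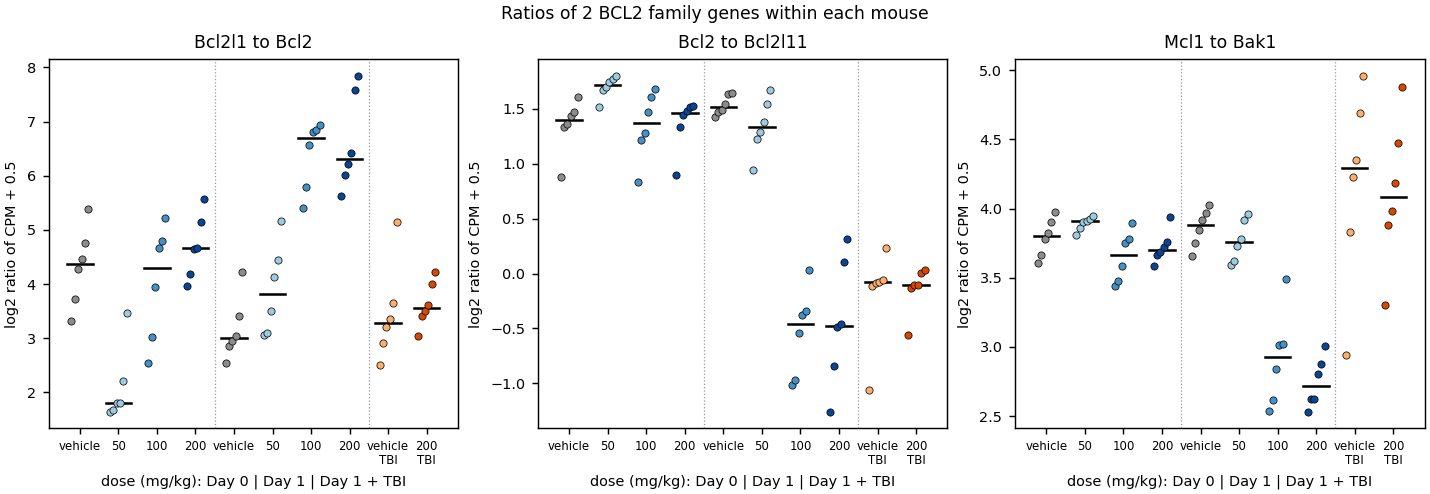
Log2 ratio of CPM + 0.5 of 2 members within each mouse, by group (n = 6 mice), for Bcl2l1 to Bcl2, Bcl2 to Bcl2l11, and Mcl1 to Bak1, with a bar at the median. The Bcl2l1 to Bcl2 ratio had medians of 6.69 and 6.31 at 100 and 200 mg/kg on Day 1 against 3.00 in vehicle mice, and Bcl2 to Bcl2l11 fell from 1.52 to -0.46 and -0.47, with -0.08 after TBI.

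Bid (chr6:120891930-120916853, minus strand) encodes the BH3-only protein that caspase-8 cleaves to carry a death receptor signal to the mitochondria. In vehicle mice on Day 1 it ranged from 18.2 to 26.2 CPM (median 19.9). It ranged from 54.4 to 128 CPM after 100 mg/kg (median 69.7) and from 62.3 to 93.5 CPM after 200 mg/kg (median 85.5). The ranges were far apart at both doses. The mean went from 20.5 ± 3.02 to 79.0 ± 26.0 CPM at 100 mg/kg (SD, n = 6; log2 fold change 2.00, SE 0.18, adjusted p = 3.91e-07, edgeR) and to 81.2 ± 12.8 CPM at 200 mg/kg (2.06, SE 0.13, adjusted p = 1.97e-08, edgeR). Relative to the median gene Bid stood at 2.38 and 2.54. With total counts Bid stayed higher and called, at 0.59 (adjusted p = 0.00883, edgeR) and 0.52 (adjusted p = 0.00506, edgeR).

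On Day 0, Bid ranged from 16.1 to 22.3 CPM at 50 mg/kg and from 21.1 to 30.2 CPM in vehicle mice, with 4 of 6 treated mice below the vehicle range. This fall was called (-0.41, SE 0.11, adjusted p = 0.0234, edgeR) but turned to 0.25 with total counts, and the call was lost without any of mice 1, 3 and 5 in turn (adjusted p = 0.0529 to 0.0602, edgeR). Relative to the median gene it was -0.44 under both scalings. On Day 1 Bid at 50 mg/kg was 21.3 to 32.3 CPM and not called by edgeR (0.38, SE 0.11, adjusted p = 0.12), while DESeq2 called it (0.41, adjusted p = 0.0227). The 50 mg/kg effect differed between the days (0.80, SE 0.16, adjusted p = 0.00102, edgeR interaction test), with a value of -0.21 under total counts.

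TBI raised Bid in vehicle mice to 26.6 to 102 CPM (median 74.9), above all unirradiated vehicle mice of Day 1 (1.74, SE 0.26, adjusted p = 0.000176, edgeR). Against vehicle mice of Day 0 the log2 fold change was 1.60 (SE 0.28, adjusted p = 0.000846, edgeR). In mice that had received 200 mg/kg, where Bid was already at 62.3 to 93.5 CPM, irradiated mice had 33.0 to 118 CPM (median 88.5) and no difference was called (0.04, SE 0.25, adjusted p = 0.913, edgeR). That comparison turned on mouse 57, without which the log2 fold change was 0.37 and called (adjusted p = 0.0374, edgeR). The TBI effects in the 2 arms differed (-1.57, SE 0.35, adjusted p = 0.00157, edgeR interaction test), but not with total counts (-0.40, adjusted p = 0.229, edgeR).

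The platelet list moved with Bid. Its 7 genes, such as Pf4 and Ppbp, summed to 1879 to 3802 CPM in vehicle mice on Day 1, to 14389 to 32514 CPM after 100 mg/kg, to 13769 to 24123 CPM after 200 mg/kg and to 3964 to 27560 CPM after TBI. All 7 were higher in each of these 3 groups, and were so with total counts too. On Day 0 at 50 mg/kg all 7 were lower (1 of 7 with total counts), at 1163 to 2632 CPM against 2374 to 4748 CPM. Within groups r with Bid ran from 0.868 to 0.999 (median 0.970, n = 6 mice in each group), and was 0.93 over 60 mice with group means subtracted. The part of platelet RNA in the Bid result was not tested.

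Bcl2l11 (chr2:128126038-128162547, plus strand) encodes BIM, which ends the life of lymphocytes and neutrophils deprived of survival signals. It ranged from 25.7 to 31.9 CPM in vehicle mice on Day 1 (median 30.8). It was 32.3 to 41.7 CPM after 100 mg/kg (median 35.8) and 30.8 to 47.1 CPM after 200 mg/kg (median 32.5). The 100 mg/kg mice were all above vehicle and the 200 mg/kg mice overlapped them. Bcl2l11 rose by 0.36 at 100 mg/kg (log2, SE 0.10, adjusted p = 0.00515, edgeR), which turned to -1.02 with total counts. At 200 mg/kg it rose by 0.32 (SE 0.12, adjusted p = 0.0318, edgeR), which turned to -1.20 with total counts, and the call was lost without any of mice 25, 27, 44 and 48 in turn (adjusted p = 0.0608 to 0.0761, edgeR). Relative to the median gene it stood at 0.74 and 0.81. At 50 mg/kg on Day 1 all 6 mice, at 32.4 to 39.7 CPM, were above the vehicle range without a call by edgeR (0.25, SE 0.08, adjusted p = 0.132; -0.08 with total counts). DESeq2 called it (0.27, adjusted p = 0.0309).

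After TBI, Bcl2l11 was 22.2 to 69.8 CPM in vehicle mice (median 64.1) and 30.9 to 83.1 CPM in 200 mg/kg mice (median 70.6). In each arm 5 of 6 irradiated mice were above all unirradiated mice, and mice 51 and 57 were the exceptions. The log2 fold changes were 0.88 (SE 0.24, adjusted p = 0.00969, edgeR) and 0.86 (SE 0.21, adjusted p = 0.00963, edgeR), and the first was not called with total counts (0.40, adjusted p = 0.112, edgeR). The TBI effects were not shown to differ between the arms (0.11, adjusted p = 0.814, edgeR interaction test).

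Bad (chr19:6941861-6951899, plus strand) encodes a BH3-only protein held inactive by growth factor signals. It was low in every group, with medians of 3.91 to 6.49 CPM. After 100 and 200 mg/kg on Day 1 it was 3.55 to 5.60 CPM and 2.71 to 4.93 CPM, and neither was called against vehicle. With total counts its mean was 2.37 and 2.06 CPM there, against 7.31 CPM in vehicle mice. In vehicle mice on Day 1 Bad ranged from 3.87 to 5.80 CPM, and after TBI from 5.28 to 9.32 CPM, where 5 of 6 mice were above the unirradiated range. That difference was not called (0.45, SE 0.19, adjusted p = 0.0605, edgeR), but was called without mouse 50 (0.53, adjusted p = 0.0258, edgeR) and by DESeq2 (0.56, adjusted p = 0.00408). Against vehicle mice of Day 0 it was called (0.66, SE 0.17, adjusted p = 0.0102, edgeR). In 200 mg/kg mice, Bad went from 2.71 to 4.93 CPM without TBI to 4.44 to 7.42 CPM with it (0.61, SE 0.21, adjusted p = 0.0486, edgeR). The last call was lost without any of mice 44, 45, 47, 55, 56, 58 and 59 in turn (adjusted p = 0.052 to 0.0992, edgeR).

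Bak1 (chr17:27019810-27029009, minus strand) encodes BAK, which forms the pore in the outer mitochondrial membrane. It was 17.5 to 21.3 CPM in vehicle mice on Day 1 (median 18.3). It was 22.2 to 32.4 CPM after 100 mg/kg (median 25.5) and 22.9 to 36.2 CPM after 200 mg/kg (median 28.7). All treated mice were above all vehicle mice. Bak1 rose by 0.57 at 100 mg/kg (log2, SE 0.12, adjusted p = 0.000833, edgeR) and by 0.69 at 200 mg/kg (SE 0.13, adjusted p = 0.000273, edgeR), but was -0.83 at both doses with total counts. Relative to the median gene it stood at 0.95 and 1.17. After TBI it was 22.0 to 31.7 CPM in vehicle mice (median 24.1), again with no overlap (0.41, SE 0.13, adjusted p = 0.0176, edgeR), which was 0.03 and not called with total counts (adjusted p = 0.918, edgeR). In 200 mg/kg mice TBI gave no call (-0.17, SE 0.16, adjusted p = 0.435, edgeR; 0.66 with total counts).

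Exons of several members overlap other genes, and the strand setting used in counting was not stated, so reads from such stretches cannot be told apart. Bak1 shares 25.5% of its exon bases with Ggnbp1 on the opposite strand, Bad 20.5% with Gpr137, Bid 17.7% with Bcl2l13 (itself a family member) and Bcl2 6.09% with D630008O14Rik. On the same strand, Bcl2a1b shares 49.1% with Gm29094 and Bcl2l2 13.3% with Gm20521.

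Between the irradiated groups, BIO 300 gave no member call. The log2 fold change of 200 mg/kg against vehicle was 0.28 for Bcl2 (95% interval -0.24 to 0.79), 0.32 for Bcl2l1 (-0.53 to 1.17), -0.09 for Mcl1 (-0.64 to 0.47) and -0.01 for Bak1 (-0.32 to 0.31). For the BH3-only members it was 0.26 for Bid (-0.37 to 0.90), 0.21 for Bcl2l11 (-0.35 to 0.77) and -0.27 for Bad (-0.70 to 0.16). All of these groups overlapped. The intervals of Mcl1 and Bcl2l11 hold changes as large as those called for them at 100 and 200 mg/kg on Day 1, so equality was not shown.

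Ratios between members within a mouse do not depend on how libraries are scaled, apart from the pseudocount. Within groups Bcl2 went with the T cell list and Bcl2l1 with the erythroid list. The part of the mix of blood cells in the ratios was not tested. The ratio of Bcl2l1 to Bcl2 had a median of 7.99 in vehicle mice on Day 1, 103 after 100 mg/kg and 79.5 after 200 mg/kg. On the log2 scale these groups ran from 2.55 to 4.22, from 5.39 to 6.93 and from 5.62 to 7.84, without overlap. At 50 mg/kg on Day 0 the ratio was lower, with a log2 median of 1.80 against 4.37 in vehicle mice, and the groups overlapped. Irradiated mice had log2 medians of 3.28 with vehicle and 3.56 with 200 mg/kg.

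Bcl2 to Bcl2l11, the survival gene against its BH3-only antagonist, ran from 1.42 to 1.64 (log2) in vehicle mice on Day 1. It fell to -1.02 to 0.03 after 100 mg/kg, to -1.26 to 0.32 after 200 mg/kg and to -1.06 to 0.23 after TBI, each apart from vehicle. The differences of the means were -2.07, -1.97 and -1.73. Mcl1 to Bak1 ran from 3.65 to 4.03 in vehicle mice, from 2.54 to 3.49 after 100 mg/kg and from 2.53 to 3.01 after 200 mg/kg, also apart. After TBI it spread from 2.94 to 4.96 and overlapped vehicle mice. In 200 mg/kg mice TBI took Mcl1 to Bak1 up by 1.37 and Bcl2l1 to Bcl2 down by 2.98, both without overlap.

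The effects of 100 and 200 mg/kg differed between the days for the same 4 members. The interaction (Day 1 effect minus Day 0 effect) was -1.72 and -1.57 for Bcl2, 1.52 and 1.31 for Bcl2l1, 2.12 and 1.99 for Bid, and 0.45 and 0.71 for Bak1, with adjusted p from 1.39e-07 to 0.0188 (edgeR interaction test). With total counts the Bak1 values turned to -1.04 and -0.56, and those of Bcl2l1 were 0.22 and 0.07 and not called. So 4 of 10 members were called at each dose, against 54.2% and 48.8% of all genes. The 50 mg/kg effect differed between the days for 2 of 10, against 17.5%. For the TBI effect with and without BIO 300, 2 of 10 were called, against 33.9%.

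Further family members and the mitochondrial death machinery were listed by name, 16 and 21 genes, of which 13 to 14 and 21 passed the filter. At 100 mg/kg on Day 1, where 25% of all genes were higher and 40.6% lower, 4 of the 13 further members were higher and 2 lower. With total counts 0 were higher and 7 lower, against 7.72% and 68.5% of all genes. The DEGs were Bnip3l (1.64), a mitophagy receptor of red cell maturation, the p53 target Bbc3 (1.24, but -0.16 with total counts), Bmf (-1.09) and the scarce Bik (-1.48). At 200 mg/kg, 3 were higher and 1 lower (0 and 7 with total counts), against 23.6% and 39.9% of all genes (6.63% and 71.2% with total counts). Bnip3l was at 1.76, Bbc3 at 1.20 (-0.34 with total counts) and Bmf at -1.03. With total counts Bnip3l was 0.24 and 0.23 at these doses and not called (adjusted p = 0.278 and 0.133, edgeR).

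Of the machinery, 6 were higher and 7 lower at both doses, but with total counts 16 were lower at each dose, and 4 were higher after 100 mg/kg and 3 after 200 mg/kg. Of all genes 25% and 23.6% were higher and 40.6% and 39.9% lower at 100 and 200 mg/kg. With total counts 7.72% and 6.63% were higher and 68.5% and 71.2% lower. The inhibitor of apoptosis Birc2 had log2 fold changes of 2.31 and 2.12, and the channel Vdac1 1.83 and 1.84. Casp6 (1.81 and 1.68) and Vdac3 (1.70 and 1.79) were also DEGs. With total counts Vdac3 was 0.28 and 0.24 and not called (adjusted p = 0.128 and 0.12, edgeR), and Casp6 was 0.39 and called at 100 mg/kg but 0.13 and not called at 200 mg/kg (adjusted p = 0.422, edgeR). On the lower side were Birc3 (-1.46 and -1.43), Parp1 (-1.13 and -1.25) and the nuclease Dffb (-1.04 and -1.74), all called under both scalings.

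After TBI in vehicle mice 5 of 13 further members were higher and 2 lower (4 and 3 with total counts). Of all genes 24.4% were higher and 22.4% lower (15.3% and 27.5% with total counts). The p53 targets Bbc3, Pmaip1 and Bax rose by 2.29, 1.70 and 1.10 (log2), Bnip3 rose by 1.96, and Bmf and Bcl2l12 fell by 2.57 and 1.31. Of the machinery 7 were higher and 6 lower under both scalings, with Vdac1 at 1.56, Birc2 at 1.37, Casp6 at 1.35, Parp1 at -2.55 and Dffb at -1.39. In 200 mg/kg mice TBI raised Bax (1.68), Bbc3 (1.67), Bnip3 (1.73) and Pmaip1 (1.31) and lowered Bnip3l (-2.35) and Bmf (-1.58). Bmf was -0.70 with total counts and not called (adjusted p = 0.259, edgeR), and the list went from 4 higher and 2 lower to 7 and 1. In that comparison 17.6% of all genes were higher and 9.58% lower, or 46.5% and 2.28% with total counts. Of the machinery 1 was higher and 1, Parp1 (-1.42), lower in these mice. With total counts 14 were higher and 0 lower, and Parp1 was -0.40 and not called (adjusted p = 0.507, edgeR).

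On Day 0 at 50 mg/kg, 1 gene of each list was higher and 1 lower, with Bnip3l (-1.52) the DEG. Of all genes 4.21% were higher and 9.87% lower. With total counts the further members were 8 higher and 1 lower, and the machinery 16 higher and 0 lower, against 49.4% and 3.61% of all genes.

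**Figure D4:**
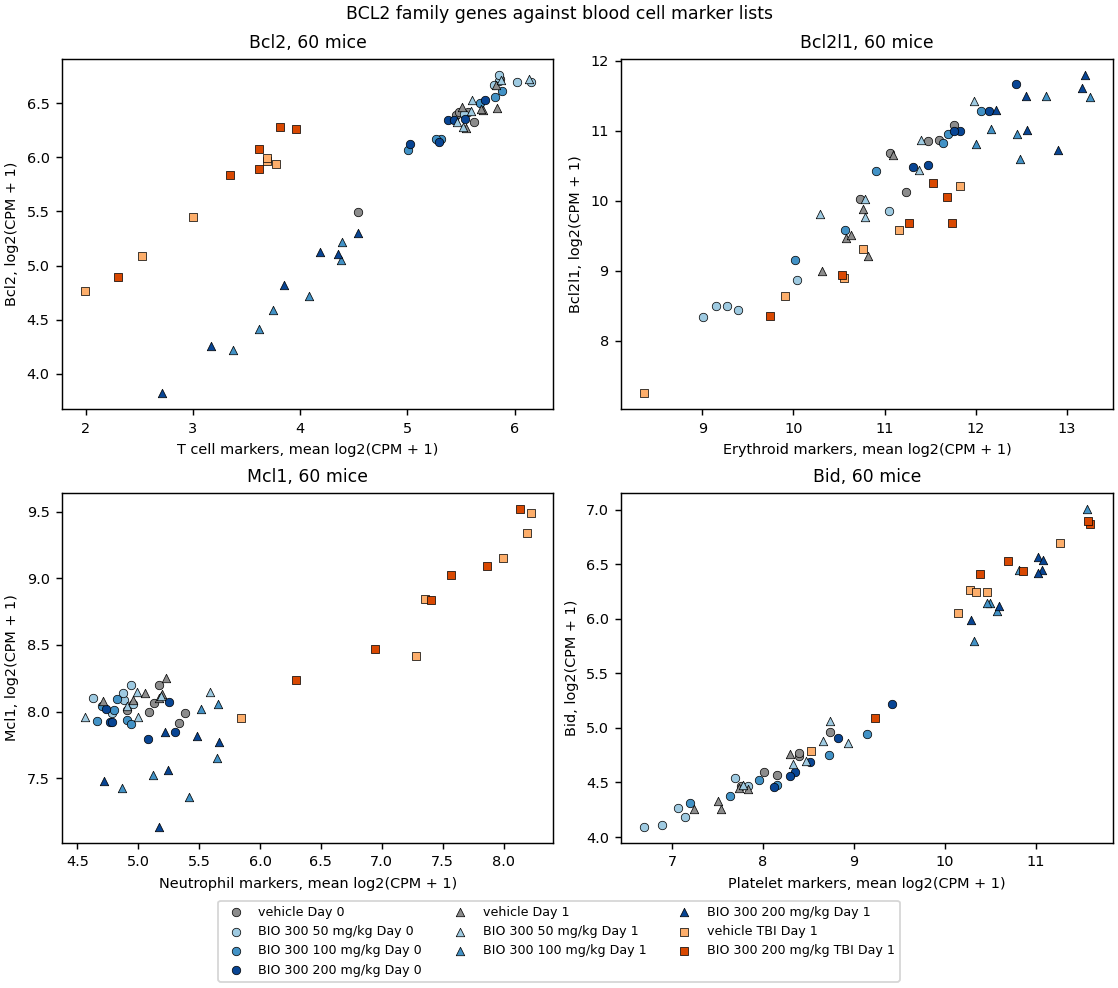
Log2(CPM + 1) of a member (vertical) against the mean log2(CPM + 1) of a cell type list (horizontal), for 60 mice coloured by group. The pairs are Bcl2 with 8 T cell genes, Bcl2l1 with 8 erythroid genes, Mcl1 with 8 neutrophil genes and Bid with 7 platelet genes. Levels differ between groups, so r for these pairs is given within groups, where its median was 0.980, 0.940, 0.566 and 0.970.

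Likeness to each member across the 60 mice was taken as Pearson r of log2(CPM + 1), among 6737 to 6738 genes with a mean of at least 10 CPM. Bid was most like Lyn, Cd84 and Cap1 (each r = 0.994), and Lyn kept r = 0.969 after group means were subtracted. Bcl2l1 was most like Bsdc1 (0.991; 0.993 with group means subtracted), Specc1 (0.990) and Fam117a (0.989). Mcl1 went with Ier5 (0.969) and Rara (0.968), and Bcl2 with Gramd1a (0.971), Kif21b (0.968) and A430078G23Rik (0.964). Bcl2l11 went with Rnf44, Rin3 and Cdkn1b (0.945 to 0.925) and Bak1 with Coro1b, Mapkapk2 and G6pdx (0.870 to 0.855). Differences between groups enter these values. With group means subtracted, r was 0.881 to 0.886 for the Bcl2l11 genes. For Bak1 it was then 0.713 with Coro1b, 0.503 with Mapkapk2 and 0.472 with G6pdx. For Bad the most like genes were Hsd17b11, Plaur and Edem2 (0.838 to 0.831), and for Bcl2l2 Vwa8, Ech1 and Acat1 (0.842 to 0.828). With group means subtracted, r was 0.584 to 0.623 for the Bad genes and 0.835 to 0.862 for the Bcl2l2 genes. The scarce Bcl2a1d was most like the natural killer cell genes Ncr1, Nkg7 and Klrk1 (0.730 to 0.725), and Bcl2a1b like Plac8, Clec4a3 and Nkg7 (0.583 to 0.523).

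By median, groups could be ordered only loosely. For Bcl2, Bcl2l1 and Mcl1, every pair of neighbouring groups in the order overlapped. For Bid the 100 mg/kg group of Day 1 (rank 4, 69.7 CPM) was apart from the next lower group, 50 mg/kg on Day 1 (26.5 CPM), and its other neighbours overlapped.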

How the data were processed

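Whole blood RNA of 60 mice in 10 groups of 6 was sequenced. The study's methods name stranded total RNA libraries with globin depletion, whereas the labels name polyA selection. Per the submitters' processing notes, Trimmomatic 0.36, STAR 2.5.2b, Subread 1.5.2 and DESeq2 were used with GRCm38. The deposited counts are unique hits per gene, as whole numbers without normalization. The gene annotation release and the strand setting are not given in the sources used here. Normalized values (unit signal), which the authors obtained with a single size factor for each mouse, were deposited beside the counts and served only to check columns. Log2 fold changes and p-values from the authors' own comparisons were left aside.

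Mice were grouped by their labels. Any 2 mice of a group differed by a chi-square of at least 11.99 per gene, far from identical libraries. Gene names came from the deposited tables for 18516 identifiers and from GENCODE for 30480, and 319 had none. In each comparison, genes reaching a summed count of 10 over its mice were fitted with edgeR 4.0.16 (TMM, estimateDisp, glmQLFit, glmQLFTest), with limma 3.58.1 and data.table, version 1.17.8, in R 4.3.3. The Benjamini-Hochberg adjustment covered every gene fitted. The 11 pairwise comparisons and 4 interaction tests used only the mice of their own groups, so groups recur between comparisons. Intervals of 95% are 1.96 SE wide on each side. Alternatives were DESeq2 1.42.0 (pairwise comparisons), RLE size factors, filterByExpr, no filter, scaling by total counts, leaving out libraries over 100 CPM of Alb, and leaving out each mouse in turn. Descriptions and figures used Python 3.11.15, pandas 2.3.3, numpy 2.4.6 and matplotlib 3.10.9. RPKM divided CPM by exon length. Ratios used a pseudocount of 0.5 CPM (0.1 as an alternative), and like genes a pseudocount of 1 CPM. Correlations with marker lists used log2(CPM + 1) of the member and the mean of log2(CPM + 1) over the list, not the summed CPM.

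All 10 members were named, but not every group and comparison of each is reported here. Genes of the 2 further lists were named where they were DEGs, up to 8 per list and comparison, with 9 marker lists, the Bcl2a1 copies, Alb and the 3 genes most like each member. Some genes that this rule names are not reported here. Members and lists were chosen with earlier results of these data known. The fits were tested on simulated data for 4 comparisons. The limit on the share of simulated 4-fold changes that edgeR had to recover was at first set for all 4. It was missed for 200 mg/kg against vehicle in irradiated mice and for the interaction of TBI and BIO 300, and after that failure it was kept only for the other comparisons. A missing call there carries less weight. The limit on false calls was applied to edgeR only, and DESeq2 exceeded it in each comparison simulated with it. Labels name no handling batches, so p-values measure the spread between these mice.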

Additional observations from a re-analysis of the deposited data

Results flagged for a closer look

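In each group of 6 mice the lowest and the highest value of each member was compared with the others, and 9 of 100 groups held a value that lay far from the rest by Dixon's 95% limit. Chance flags about 1 in 20 groups. In the 50 mg/kg group of Day 0, mouse 2 had the lowest Bcl2 (83.6 CPM, the others 100.5 to 107) and the highest Bcl2l1 (926 CPM, the others 323 to 465). Mouse 57 (200 mg/kg with TBI) had the highest Bcl2l2 (14.8 CPM, the others 2.38 to 4.10) and the lowest Bcl2l11 (30.9 CPM, the others 64.1 to 83.1), and 5625 CPM of Alb. Mouse 17 (vehicle, Day 0) had the highest Bcl2l2 (4.93 CPM, the others 2.15 to 2.58), with 6450 CPM of Alb. Bcl2a1d was 4.49 CPM in mouse 46 (200 mg/kg, Day 1) against 0.108 to 1.45 CPM in the others. Smaller gaps were seen for Mcl1 in mouse 30 (vehicle, Day 1; 304 CPM against 270.2 to 281), Bid in mouse 27 (vehicle, Day 1; 26.2 CPM against 18.2 to 20.8) and Bak1 in mouse 24 (200 mg/kg, Day 0; 21.9 CPM against 16.3 to 18.3).

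Effects that differed between conditions by edgeR's interaction test formed the other set. The TBI effect in 200 mg/kg mice minus that in vehicle mice was 2.09 for Bcl2 and -1.57 for Bid (log2). For Bcl2 these TBI effects had opposite signs, with a fall in vehicle mice and a rise in 200 mg/kg mice. The Day 1 effect exceeded the Day 0 effect at 50 mg/kg by 2.62 for Bcl2l1 and 0.80 for Bid. At 100 mg/kg the differences between the days were -1.72 for Bcl2, 1.52 for Bcl2l1, 2.12 for Bid and 0.45 for Bak1, and at 200 mg/kg they were -1.57, 1.31, 1.99 and 0.71. The vehicle mice of Day 0 and Day 1 entered all 3 tests of dose by day.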

How the results depend on the processing

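No paired analysis was possible because animal numbers are not shared between groups. Scaling by total counts in place of TMM had the largest effect: of 89 combinations of a member and a comparison (those called with TMM or under an alternative), 31 kept direction and call, 27 gained a call, 10 lost it and 21 reversed. The reversed log2 fold changes were, at 50 mg/kg on Day 0, 0.25 for Bid and 0.64 for Bak1. At 100 mg/kg on Day 1 they were -1.10 for Bcl2l2, -1.35 for Bcl2a1b, -1.02 for Bcl2l11 and -0.83 for Bak1, and at 200 mg/kg -1.42 for Bcl2l2, -1.31 for Bcl2a1d, -1.20 for Bcl2l11 and -0.83 for Bak1. After TBI in 200 mg/kg mice Bak1 was 0.66. For the differences between days, 50 mg/kg gave -0.94 for Bcl2l2, -0.75 for Bcl2l11, -0.21 for Bid and -0.94 for Bak1, 100 mg/kg gave -1.18 for Bcl2l2, -1.15 for Bcl2l11 and -1.04 for Bak1, and 200 mg/kg gave -1.22 for Bcl2l2, -0.94 for Bcl2l11 and -0.56 for Bak1. The transcript Gm26917 took a median of 7.36% of counts in vehicle mice on Day 1 and 0.278% and 0.165% at 100 and 200 mg/kg. A fall in its share by itself raises the total-count values of other genes. With total counts the 8 erythroid genes summed to 128682 to 156947 CPM in vehicle mice on Day 1. They summed to 200397 to 283751 CPM after 100 mg/kg and to 178699 to 275337 CPM after 200 mg/kg. A rise in their share by itself lowers the values of other genes. The part of either in the reversals was not tested.

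With total counts the number of members called moved to 8 at 50 mg/kg on Day 0 (53% of all genes were called), 8 for TBI in 200 mg/kg mice (48.8%), 4 for the interaction of TBI and BIO 300 (49.5%), and 9 and 9 for the differences between days at 50 and 100 mg/kg (51.9% and 65.5%). It went from 6 to 4 for TBI in vehicle mice (42.8%) and from 4 to 6 for the difference between days at 200 mg/kg (62.3%). DESeq2 called 1 member between the vehicle groups (3.19% of all genes) and 2 at 50 mg/kg on Day 1 (5.17%). Without 1 mouse in turn (72 fits), members called ranged from 1 to 2 at 50 mg/kg on Day 0, 5 to 6 at 100 and at 200 mg/kg on Day 1, 6 to 7 for TBI in vehicle mice, 4 to 6 for TBI in 200 mg/kg mice and stayed at 0 between the irradiated groups. Size factors of the RLE kind, filterByExpr, no filter and leaving out the 11 Alb-rich libraries reversed nothing and together ended 4 calls. They added 4, 5, 1 and 6 calls in that order. With a pseudocount of 0.1, the mean log2 ratio moved by less than the SD of its group in all 30 combinations of a ratio and a group. Depth limited the scarce members most: Bcl2a1d and Bcl2a1b reached 10 counts in 52 and 56 of 60 mice, and a missing call for them says little.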

Other observations

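Of the 9 marker lists examined, the report sets 4 beside the members they moved with, a choice made after the values were seen. The other 5 lists gave the following counts of genes called by edgeR. All 8 B cell genes were lower at 100 and 200 mg/kg on Day 1 and after TBI in both arms, and 3 of 8 were higher at 50 mg/kg on Day 0. With total counts 4 of 8 B cell genes were lower after TBI within 200 mg/kg. Of the 6 natural killer cell genes, 2 were lower at 100 mg/kg on Day 1, 0 at 200 mg/kg and 5 after TBI in vehicle mice, against 6, 3 and 6 with total counts. Among the 7 monocyte genes, 5 fell and 1 rose on Day 1 after 100 mg/kg, whereas after 200 mg/kg 3 fell and 1 rose (6 fell and 1 rose at each dose with total counts). TBI in vehicle mice lowered 3 of them and raised 2. None of the 10 hepatocyte genes was called in these comparisons. All 10 p53 target genes were higher after TBI in both arms under both scalings. At 100 and 200 mg/kg on Day 1, 6 of 10 p53 targets were higher and 0 lower with TMM, but 1 was higher and 7 lower with total counts. With total counts 7.72% and 6.63% of all genes were higher and 68.5% and 71.2% lower at these doses. The 7 of 10 p53 targets that were lower lie near that share.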
